A study of Mus musculus with 101 samples.

Results

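Dnmt3l and Tet3 stand at opposite ends of DNA methylation: DNMT3L assists the enzymes that write it, and TET3 is one of the enzymes that remove it. Each gene had 1 target region in a capture panel read in naive mouse embryonic stem cell lines, and these 2 regions, of 868 in the deposited region table, are described here. They were taken by their coordinates in mm10, chromosome 10, 78042036 to 78042536 for Dnmt3l and chromosome 6, 83404280 to 83404780 for Tet3. The CpG table held 22 CpGs inside them, 3 at Dnmt3l and 19 at Tet3, of 7917 CpGs in all.

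The cells were embryonic stem cells derived from Diversity Outbred mice, an outbred stock in which each animal carries its own mix of several founder strains, grown in serum with LIF plus 2i. LIF is a cytokine that sustains self-renewal, and 2i is a pair of kinase inhibitors that hold cells in the naive state and lower their DNA methylation. Methylation was read by enzymatic methyl sequencing (EM-seq), in which enzymes convert unmethylated cytosines, after hybrid capture of the targets. All lines shared this culture. The table had 85 columns, each treated as a line. By the prefix of the line name they fell into 28 B1, 18 B2, 20 B3A and 19 B3B lines. Columns B1dB37 and B1dB37N, each with its own title, may by name be the same line. They were counted as separate lines, with 23.99% and 21.71% at Dnmt3l and 60.31% and 60.3% at Tet3. Whether they are independent was not determined. The subset of columns without a final N leaves B1dB37N out. The labels do not explain the prefixes, give neither the genotype nor the sex of a line, and do not say that the lines were cultured in parallel. The tables hold fractions, given here as percent, and no reads per site, so depth is unknown and sampling error is part of every spread between lines.

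DNMT3L is a relative of the de novo methyltransferases DNMT3A and DNMT3B that has no catalytic activity of its own; it binds them and stimulates their work. In mice it is needed for maternal imprints in oocytes and for silencing of transposons in male germ cells, and it is also made in embryonic stem cells. TET3 is a dioxygenase that oxidises 5-methylcytosine, a step toward its removal, and is best known from the oocyte and the zygote, where it acts on the paternal genome. No RNA was measured here, so the values describe methylation of the DNA at these genes and not their expression.

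The Dnmt3l region lay across a start site of its gene. It ran from 251 bases before to 249 bases after the start site that RefSeq lists at position 78042287 on the plus strand of GRCm38.p6, the assembly that mm10 also names. It also overlapped Aire, which encodes a transcription regulator of thymic self-tolerance, and the authors placed it in the category germline_Dahlet. The other 2 listed Dnmt3l start sites lay 7306 bases or more from the region. Which of the listed start sites these cells use was not determined. The promoter sequence is shown because methylation was measured inside it; it spans chr10:78042037-78042336, plus strand, 5′ to 3′, from the RefSeq table, with each CG in capitals.
Dnmt3l: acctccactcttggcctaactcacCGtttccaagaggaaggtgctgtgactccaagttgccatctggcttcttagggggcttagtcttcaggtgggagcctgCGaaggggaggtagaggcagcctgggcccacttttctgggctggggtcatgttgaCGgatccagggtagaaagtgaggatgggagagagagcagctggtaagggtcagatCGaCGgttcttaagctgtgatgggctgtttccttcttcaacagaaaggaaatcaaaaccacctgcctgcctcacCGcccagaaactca

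This window of 300 bases held 6 CGs, and the last of them, 36 bases after the start site, was the only one of the 6 with a value in the CpG table. The other measured CpGs of the region lay 68 and 183 bases after the start site, beyond the printed end. The window was within the usual range of gene starts: its observed to expected CG ratio was 0.272, with 38.5% of 32851 windows of the same length below it and a median of 0.384. Its GC content was 54.7%, against a median of 52.7%. The letters TCCCGC, the core of the E2F6 binding motif, were not in this window on either strand, and 19.98% of the windows held them. The E-box letters CACGTG were not in it either, and 7.15% of the windows held them.

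The Tet3 region lay inside its gene, far from the listed start. It was 36898 to 37398 bases downstream of the start site listed at position 83441678, on the minus strand, within gene bounds of 83362373 to 83457208. Whether it is exonic or intronic was not determined here. The authors placed it in the category aging_Meer.

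The Tet3 region was the more methylated of the pair in every line. Tet3 ran from 13.1% to 90.6% with a median of 58.6%, and Dnmt3l from 1.22% to 81.4% with a median of 25.9%. Tet3 averaged 56.2% ± 20.6 and Dnmt3l 28.8% ± 17.1 (SD, n = 85 lines each). Tet3 was above 50% in 55 lines and below 25% in 6, whereas Dnmt3l was above 50% in 10 lines and below 25% in 41. The ranges of the 2 regions across lines overlapped widely, but within a line Tet3 was higher in 85 of 85, by 27.4 points ± 10.1 (SD), with a smallest gap of 8.03 and a largest of 48.9 points. A two-sided sign-flip permutation test over lines gave p = 1e-05, the smallest that 100000 resamples can give.

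Both regions lay above the general level of their line. The mean over the other 785 kept regions, each measured in 80% of lines or more, was 18.9% ± 10.04 (SD, n = 85) and ran from 3.003% to 43.7%. Tet3 exceeded it in 85 of 85 lines, by 37.3 points ± 11.6 (SD), and Dnmt3l in 81 of 85, by 9.85 points ± 8.34 (SD). The sign-flip permutation test gave p = 1e-05 for each. With each gene taken as the mean over its CpGs in the CpG table, the excess was smaller. It was 5.40 points for Dnmt3l and 34.4 points for Tet3. By its mean, Tet3 stood above 99.2% of the 785 regions and above 219 of the 220 other aging_Meer regions. Dnmt3l stood above 70.1% of the 785 regions and above 78 of the 114 other germline_Dahlet regions.

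Among the prefixes, B1 had the highest mean at both regions and B3A the lowest. Dnmt3l in B1 lines ran from 9.04% through a median of 33.1% to 81.4%, and averaged 35.8% ± 17.2 (SD, n = 28). In B2 lines it ran from 9.26% through 31.4% to 66.3%, and averaged 34.7% ± 15.9 (SD, n = 18). In B3A lines it ran from 1.22% through 14.8% to 46.1%, and averaged 18.7% ± 11.7 (SD, n = 20). B3B lines lay between, from 3.74% through 21.2% to 64.6%, with a mean of 23.6% ± 16.8 (SD, n = 19). The groups overlapped throughout, and no B3A line passed 50%.

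Tet3 gave the same order of means. B1 lines ran from 27.1% through a median of 72.1% to 89.7%, with a mean of 66.6% ± 17.1 (SD, n = 28). B2 lines ran from 20.7% through 62.9% to 88.7%, with a mean of 59.5% ± 19.6 (SD, n = 18). The SDs within prefixes, from 17.1 to 20.8 points, were close to the widest gap between prefix means, 22.04 points. B3A lines ran from 17.4% through 45.99% to 75.8%, with a mean of 44.6% ± 18.7 (SD, n = 20). B3B lines ran from 13.1% through 54.7% to 90.6%, with a mean of 50.1% ± 20.8 (SD, n = 19). The mean of the other regions followed this order too, at 24.4% in B1, 20.7% in B2, 15.8% in B3B and 12.8% in B3A lines.

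**Figure D1:**
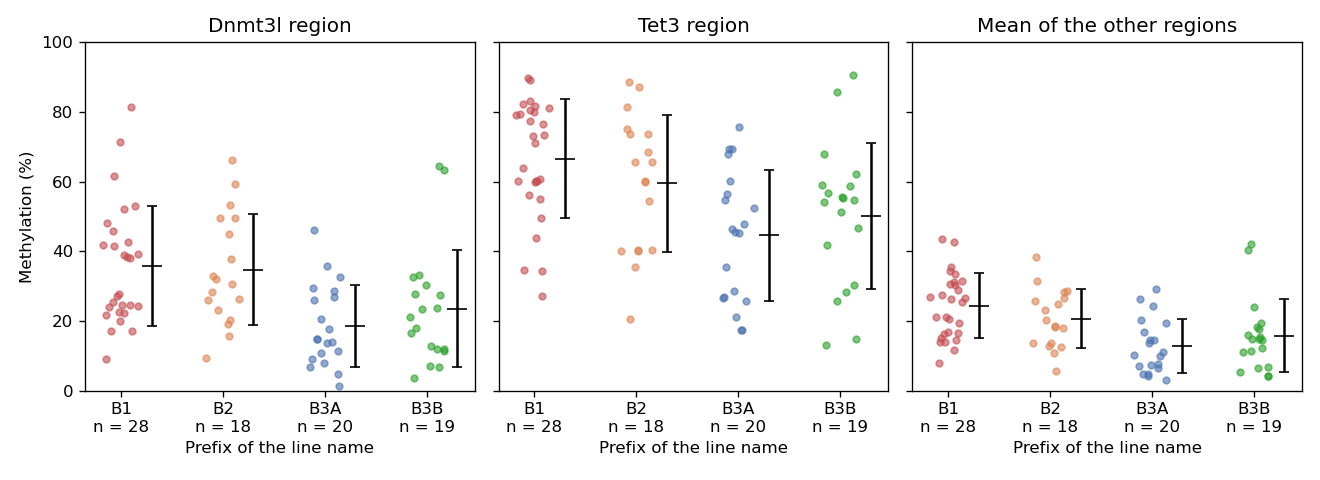
Methylation in percent of the Dnmt3l region, the Tet3 region and the mean of the other 785 regions, by prefix of the line name. Each point is a line and the black marks give mean and SD; B1 is highest on average and B3A lowest in all 3 panels, and Tet3 averages 56.2% against 28.8% for Dnmt3l.

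The difference between prefixes passed the threshold at both regions. The moderated F test of limma across 787 regions, on log2 odds with Benjamini-Hochberg adjustment, gave an adjusted p of 0.000467 for Dnmt3l and 0.00137 for Tet3. The same test called 81.6% of all regions, so a call was the common case. Of the 6 pairwise contrasts, the same 3 passed at both genes. B1 lines exceeded B3A lines by 1.44 ± 0.347 log2 odds at Dnmt3l (SE, adjusted p = 0.000213) and by 1.45 ± 0.362 at Tet3 (adjusted p = 0.000308), with 85.3% of regions called. B1 lines exceeded B3B lines by 1.01 ± 0.353 at Dnmt3l (adjusted p = 0.0119) and by 1.08 ± 0.368 at Tet3 (adjusted p = 0.0102), with 67.2% of regions called. B2 lines exceeded B3A lines by 1.35 ± 0.386 at Dnmt3l (adjusted p = 0.00866) and by 0.99 ± 0.402 at Tet3 (adjusted p = 0.0275), with 72.4% of regions called. In columns without a final N, B1 against B3B no longer passed at Tet3, and among lines with 1 library title B2 against B3A passed at neither gene. B1 against B2, B2 against B3B and B3B against B3A did not pass at either gene, with adjusted p between 0.163 and 0.908, and at most 0.254% of regions were called in any of them.

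With the mean log odds of the other regions of each line in the fit, neither gene passed. The adjusted p was 0.425 for Dnmt3l and 0.636 for Tet3, none of the 6 contrasts passed at either, and 3.56% of the 787 regions were called. The within-line gap between the genes did not pass a test between prefixes. Tet3 minus Dnmt3l averaged 30.8 points ± 10.9 in B1, 26.6 ± 9.66 in B3B, 25.9 ± 9.28 in B3A and 24.8 ± 9.76 in B2 lines (SD), and a permutation test of the F statistic gave p = 0.181.

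Both regions rose and fell with the general level of the line. Across the 85 lines, Dnmt3l correlated with that level, the mean over the other regions, at r = 0.942 and rho = 0.941, and Tet3 at r = 0.943 and rho = 0.966. Each had a permutation p of 1e-05 and an adjusted p of 1.79e-05 over the 50 correlation tests made. Such values were usual on the panel: the median r was 0.872 over the 785 other regions, and among regions with a mean within 5 points it was 0.944 for those like Dnmt3l and 0.925 for those like Tet3. Leaving out the 2 lines with the most extreme mean gave r = 0.934 for Dnmt3l and 0.946 for Tet3. For Dnmt3l the r inside a prefix was 0.969 for B3B, 0.964 for B3A, 0.938 for B2 and 0.908 for B1 lines. For Tet3 it was 0.928 for B3B, 0.940 for B3A, 0.961 for B2 and 0.921 for B1 lines.

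The shape of the relation differed in description. For Dnmt3l a straight line had a slope of 1.60 ± 0.0627 points per point (SE) and an intercept of -1.59 ± 1.34%, and it took up 88.7% of the variance, against 89.2% for a quadratic curve. For Tet3 the slope was 1.93 ± 0.0749 and the intercept 19.6 ± 1.60%, and the straight line took up 88.9%, against 94.3% for a curve that flattened toward high levels. The residual SD of Tet3 was 4.92 points about the curve and 6.86 about the line, and that of Dnmt3l was 5.61 and 5.73. The B1 line with the highest Dnmt3l value, 81.4%, had 89.7% at Tet3, a gap of 8.26 points against the mean gap of 27.4.

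**Figure D2:**
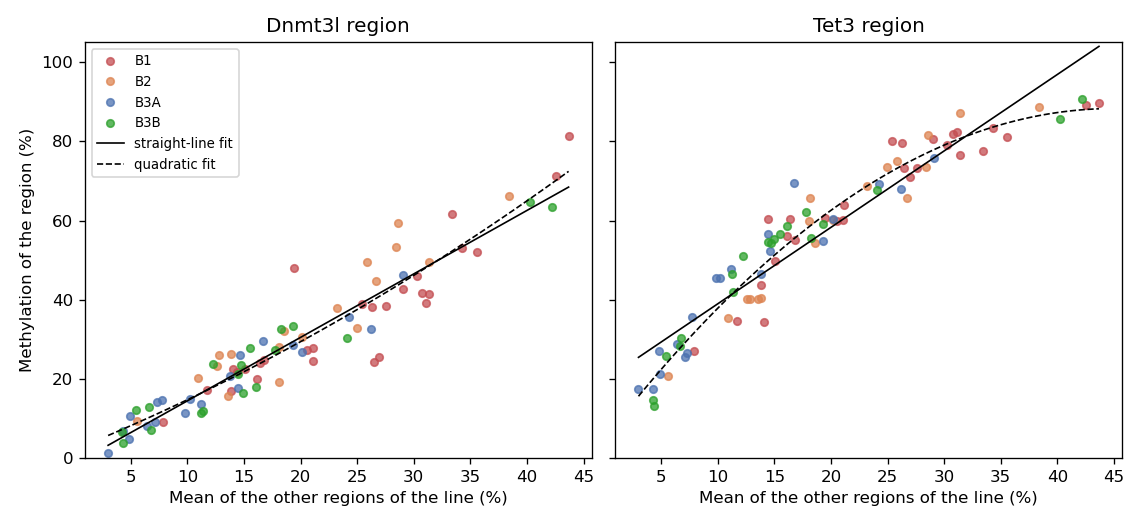
Methylation of the Dnmt3l region and the Tet3 region (percent) against the mean of the other 785 regions of the same line (percent), with each of 85 lines coloured by prefix. The solid line is the straight fit and the dashed line the quadratic fit; the Tet3 points bend over at high levels, where the quadratic fit takes up 94.3% of the variance.

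The gap between the 2 genes correlated positively with the level of the line when all lines were pooled, but it did not widen throughout. The largest gap, 48.9 points, lay at a level of 26.46%. In the lines of highest level, from 38.41% to 43.67%, the gap was 22.44, 21.1, 27.23, 17.97 and 8.26 points in order of level. A curve of the gap on the level was not tested. Tet3 minus Dnmt3l correlated with the mean of the other regions at r = 0.325 and rho = 0.415 (n = 85), with permutation p of 0.00249 and 0.00019 and adjusted p of 0.00366 and 0.000306. Without the 2 farthest lines r was 0.453. Taken by prefix, it was 0.679 among B3A lines (adjusted p = 0.00189, by permutation), and it did not pass among B2 lines at 0.397 (adjusted p = 0.137), B3B lines at 0.315 (adjusted p = 0.228) or B1 lines at 0.0170 (adjusted p = 0.931). Without the 2 farthest lines of each prefix it was 0.722 among B3A, 0.410 among B2, 0.754 among B3B and 0.134 among B1 lines, so the B3B value rests on 2 lines. Whether r differs between prefixes was not tested. On log odds the pooled r was 0.0742 (p = 0.501), and in columns without a final N it was 0.241 (p = 0.0796), so the relation did not pass in either setting.

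Dnmt3l and Tet3 followed each other across lines at r = 0.871 and rho = 0.907 (permutation p = 1e-05, adjusted 1.79e-05, n = 85). The r was 0.916 among B3A, 0.890 among B3B, 0.868 among B2 and 0.798 among B1 lines, and 0.874 without the 2 farthest lines. After adjustment of both for the mean of the other regions, the partial r was -0.156 (permutation p = 0.153, adjusted 0.196) and the partial rho -0.193 (p = 0.0766, adjusted 0.106). With a quadratic adjustment the partial r was -0.0138 (p = 0.899), on log odds its sign turned, to 0.0652 (p = 0.551), and from means over the CpG table it was -0.232 (p = 0.0317). Of the 786 regions ranked by r with Dnmt3l, Tet3 came at place 267, and Dnmt3l came at place 245 for Tet3.

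Once the straight line on the other regions was taken out, B2 lines averaged above it at Dnmt3l. The difference between prefixes did not pass after adjustment. The residual averaged 3.15 points ± 5.71 in B2 lines (SD, positive in 14 of 18), against -1.76 ± 7.24 in B1 lines (positive in 6 of 28), -0.23 ± 3.31 in B3A and -0.15 ± 4.203 in B3B lines. A permutation test of the F statistic gave p = 0.0388, and 0.0776 after adjustment over both genes and so short of 0.05. In the limma fit with the mean log odds of the other regions, B1 minus B2 was -0.287 ± 0.131 log2 odds (SE, adjusted p = 0.195). For Tet3 the residual means lay between -0.18 and 0.26 points, with p = 0.997.

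The CpGs of each region were fitted alongside all 7917 CpGs of the table. At Dnmt3l 3 of 3 and at Tet3 19 of 19 differed between prefixes, with adjusted p from 0.00457 to 0.0152 at Dnmt3l and from 0.00284 to 0.0436 at Tet3 (limma), where 45.2% of all CpGs were called. CpGs within a region share reads and are not replicates. With the mean log odds of the other regions in the fit, 0 of 3 and 0 of 19 were called, and 0.177% of all CpGs.

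Methylation at Dnmt3l fell from CpG to CpG into the gene. The CpG 36 bases after the start site, position 78042323, had the highest level and the largest SD, 30.7% ± 19.5, the next one 26.3% ± 19.3, and the CpG at 183 bases, position 78042470, the lowest, 16.02% ± 14.2 (SD, n = 85 lines each). The first exceeded the last in 78 of 85 lines, by 14.7 points ± 12.2 (SD), and the full order held in 44. The last CpG was at 0% in 10 lines, the middle one in 5 and the first in 0. Pairs of the 3 CpGs correlated across lines at r from 0.780 to 0.851. The deposited average of the region was 4.45 points ± 4.31 above the mean of these 3 CpGs and correlated with it at r = 0.968.

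**Figure D3:**
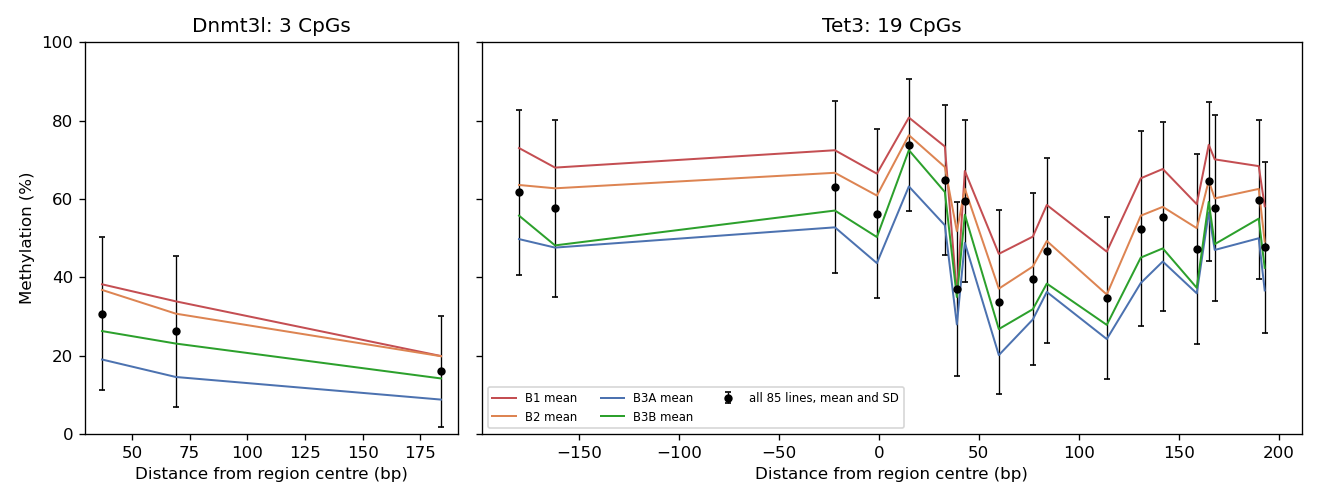
Methylation in percent of each CpG of the Dnmt3l region (3 CpGs) and the Tet3 region (19 CpGs) against its distance from the centre of the region in bp. Black points with bars give mean and SD over 85 lines and coloured lines the prefix means; B1 is highest and B3A lowest at every CpG except the Tet3 CpG 39 bp from the centre, where B2 is highest.

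The Tet3 region had a profile of peaks and troughs that most lines shared. Position 83404545 was the highest CpG at 73.9% ± 16.8 and position 83404590, the lowest at 33.8% ± 23.5 (SD, n = 85 lines each). The first exceeded the second in 85 of 85 lines, by 40.1 points ± 14.7 (SD). The most variable CpG was position 83404661, with 52.5% ± 24.9. Of the 19 CpGs, 12 averaged above 50% and 4 below 40%. Ranked along the region, the CpGs of a line correlated with the mean profile at a median rho of 0.782, from 0.509 to 0.977 over lines. The range across CpGs within a line averaged 53.2 points ± 13.9 at Tet3 and 17.99 ± 11.3 at Dnmt3l (SD), over 19 and 3 CpGs.

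The Tet3 CpGs moved together across lines, with a median r of 0.862 over 171 pairs. The 49 pairs within 50 bp had a median r of 0.883, and the 29 pairs more than 200 bp apart 0.855. For 18 of the 19 CpGs, the slope on the general level of the line was 1.35 to 2.22 points per point, and the r with that level 0.806 to 0.945.

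The remaining Tet3 CpG, position 83404569, 39 bp from the centre of the region, stood apart; it was singled out after its values were seen. Its r with the mean of the other 18 CpGs was 0.442, where each of those 18 had an r with the rest of the region between 0.887 and 0.953. It ran from 0% through a median of 34.2% to 93.7%, with a mean of 37.1% ± 22.2 (SD, n = 85), and was at 0% in 4 lines. The other 18 CpGs averaged 54.3% ± 20.5 in the same lines and never fell below 12.9% in their mean. The flanking CpGs, 6 bases before and 4 bases after it, had 65.0% ± 19.2 and 59.4% ± 20.7 and correlated with each other at r = 0.919, but their mean correlated with this CpG at r = 0.492. Neither genotype nor depth is given, so whether every line carries a CG at this position was not determined. Low values of this CpG may therefore not all be low methylation, and this was not tested.

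Its gap to the other 18 CpGs differed from line to line. The CpG minus the rest ran from -89.9 through a median of -13.3 to 16.4 points, with an SD of 22.6, where the SD of the same difference lay between 7.18 and 10.1 points for each of the other CpGs. It was more than 20 points below the rest in 35 lines and more than 40 below in 15. These lines were found in every prefix: 19 of 28 B1, 9 of 20 B3A, 4 of 19 B3B and 3 of 18 B2 lines were more than 20 points below. The mean difference was -29.1 points ± 23.7 in B1, -15.2 ± 16.2 in B3A, -12.9 ± 25.2 in B3B and -5.37 ± 16.1 in B2 lines (SD). The CpG itself averaged 51.8% in B2, above 35.7% in B1, 34.99% in B3B and 27.98% in B3A lines, unlike the order at the region. With the mean log odds of the other regions in the fit over all CpGs, its prefix difference had an adjusted p of 0.291 (limma).

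An r this low was uncommon among CpGs of comparable regions. In the 110 other kept regions with at least 5 CpGs and a CpG mean of 25 to 75%, 4 of 1105 CpGs, 0.362%, had an r under 0.5 with the rest of their region. Counted by region, since this CpG was picked as the lowest of 19, 4 of the 110 regions held such a CpG. Without this CpG, the mean over the Tet3 CpGs followed the general level of the line at r = 0.947.

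**Figure D4:**
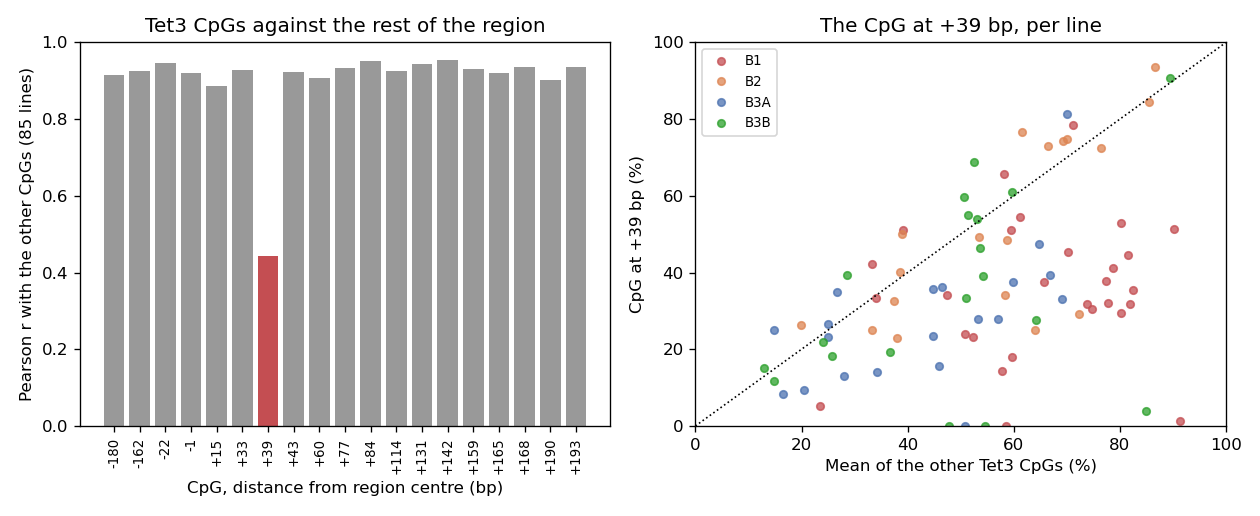
Left, Pearson r over 85 lines of each of the 19 Tet3 CpGs with the mean of the other CpGs of the region, by distance from the region centre in bp, with the CpG of lowest r in red. Right, that CpG (percent) against the mean of the other 18 CpGs (percent) per line, coloured by prefix, with the dotted line of equal values; its r is 0.442, and 35 lines lie more than 20 points below the rest.

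By category of target region, both genes followed most sets of the panel. Tet3 correlated with the mean of the 46 regions of the 2-cell stage category at r = 0.955, and Dnmt3l at r = 0.920. With the 23 imprinting regions r was 0.916 for Tet3 and 0.831 for Dnmt3l. With the 114 other germline_Dahlet regions r was 0.927 for Tet3 and 0.937 for Dnmt3l. With the 3 nPSC-associated regions, which averaged 0.433%, r was 0.124 for Tet3 and 0.223 for Dnmt3l. These are descriptions over 85 lines read in the same libraries, with no test between categories.

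The regions most like Dnmt3l across lines, by Pearson r, were those of Celf5 (0.947), Ly6g6c (0.941), Sertad4 (0.936, n = 83), Capn11 (0.935) and Fgf11 (0.935), with n = 85 for the others. By partial r given the other regions, they included Acly (0.512), Sv2c (0.427, n = 72), Robo4 (0.413) and 1700003E16Rik (0.405). The means of these regions were 26.3%, 17.3%, 2.24% and 5.15% in that order. Robo4 and 1700003E16Rik thus lay far below the 28.8% of Dnmt3l. The authors placed Acly and Sv2c in the category B6J vs 129. Acly encodes ATP citrate lyase, which makes cytosolic acetyl-CoA. For Tet3 the highest r were at Scara5 and Ccdc148 (0.969 each), Pik3r5 (0.967), Unc5a (0.965) and Arhgap28 (0.964). By partial r they were Ccdc148 (0.699), Gm5117 (0.690), Scara5 (0.681), Fmnl3 (0.671) and Arhgap28 (0.663), over 85 lines each. The 7 Tet3-like regions had means between 45.2% and 51.7%. The partial r takes out a straight line only, while Tet3 curved on the level of the line, and these values were not repeated with a curve. Over all 786 other regions the median r was 0.832 with Dnmt3l and 0.794 with Tet3.

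Few other genes of the pathway were on the panel. Of 31 names listed for writers, erasers, protectors and readers of methylation, 1 had an overlapping region: Ctcfl, a germline paralogue of the insulator protein CTCF. The names included Hells also under its other name, Lsh. Ctcfl ran from 0% through a median of 34.4% to 73.2%, with a mean of 34.6% ± 18.3 (SD, n = 82). It followed the mean of the other regions at r = 0.911, Dnmt3l at 0.872 and Tet3 at 0.859. Its prefix difference had an adjusted p of 0.00119, and 0.636 with the mean log odds of the other regions in the fit (limma). The region nearest Dppa3, which protects the maternal genome of the zygote from TET3, had 6.26% ± 6.47 (SD, n = 64) and was too often missing to be tested. The writers Dnmt1, Dnmt3a, Dnmt3b and Uhrf1 and the erasers Tet1, Tet2 and Tdg had no overlapping region.

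Marker regions give the setting of these levels. The region nearest the pluripotency gene Nanog had 0.360% ± 0.599 (SD, n = 85), and those overlapping Zfp42 and Tbx3 had 0.792% ± 1.44 (n = 80) and 0.191% ± 0.381 (n = 83). The region nearest Dppa3, listed with these genes too, was higher, at 6.26% ± 6.47 (SD, n = 64), and reached 22.7%. Of the endoderm genes, Gata4 had 13.9% ± 7.83 and Sox17 5.03% ± 2.69 (SD, n = 85 each), and no region overlapped the listed trophoblast genes. The regions overlapping Foxa2 had 7.75% ± 4.26 and 3.77% ± 2.37, and another nearest to it 3.47% ± 2.19 (SD, n = 85 each). Methylation at these regions does not by itself tell cell types apart.

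Column names held further marks that may bear on the levels. The 31 columns whose name ends in N averaged 24.2% at Dnmt3l and 53.8% at Tet3, against 31.4% and 57.6% in the 54 columns without it. The mark was unevenly spread, in 16 of 20 B3A, 9 of 19 B3B, 6 of 28 B1 and 0 of 18 B2 lines, and inside the prefixes the pooled direction mostly turned. Tet3 averaged 74.9% with a final N and 64.3% without among B1 lines, 47.5% and 32.7% among B3A lines, and 50.9% and 49.4% among B3B lines. Dnmt3l averaged 34.6% with a final N and 36.1% without among B1 lines, 20.01% and 13.2% among B3A lines, and 24.7% and 22.6% among B3B lines. Tet3 minus Dnmt3l averaged 40.3 points ± 3.45 in the 6 B1 lines with a final N and 28.2 ± 10.8 in the 22 without (SD). It was 27.5 ± 8.57 and 19.4 ± 10.4 in the 16 and 4 B3A lines, and 26.2 ± 11.1 and 26.9 ± 8.72 in the 9 and 10 B3B lines. None of these differences was tested. In columns without a final N the prefix difference had an adjusted p of 0.0156 for Dnmt3l and 0.0245 for Tet3 (limma). The 16 lines with 2 library titles averaged 36.1% at Dnmt3l and 64.6% at Tet3, against 27.1% and 54.3% in the 69 others. The part of either mark in these results was not tested.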

How the data were processed

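The authors deposited methylation fractions as averages of 868 regions and as values of 7917 CpGs, each in 85 columns; both deposited tables name a coverage filter of 10. The assembly mm10 and the tools Bismark, Bowtie2 and Trim Galore 0.6.4 are named per the submitters' processing notes, without settings.

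Fractions were multiplied to percent. Columns were matched to the 101 titles by name: 44 matched 1 title, and 41 were used by prefix alone. No columns were identical. Since separate cultures are not stated, p-values cover the spread among columns only. The 787 regions measured in 80% of lines or more were kept. Differences between prefixes were tested in limma 3.58.1 (R 4.3.3) on log2 odds of the fractions, with an offset of 0.01 added above and below. They were adjusted by Benjamini-Hochberg over the table at 0.05, and the fit was checked on simulated data. The simulated regions were drawn independently, so that check does not cover the level that regions of a line share. Single values used two-sided permutation tests with 100000 resamples (Python 3.11.15, NumPy 2.4.6, SciPy 1.17.1). The mean of the other regions left out both genes. Gene positions came from RefSeq (GRCm38.p6).

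Genes named for likeness are the 5 regions with the highest r and the 5 with the highest partial r; named CpGs are the lowest, highest and most variable of each region, with 1 exception stated in the text. 1 region chosen by the likeness rule is not reported here. Members and lists were chosen with earlier results of these data known.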

Additional observations from a re-analysis of the deposited data

How the results depend on the processing

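Of 76 alternative values over 15 results, 66 kept their direction and their side of the threshold, counting as kept a number of calls within 1.5 times, as in 3 cases where 1 of 3 contrasts was lost. The prefix difference kept its call at both genes under other offsets, untransformed fractions, other filters on missing regions, centring by line, CpG means and subsets of columns, with adjusted p up to 0.0156 for Dnmt3l and 0.0245 for Tet3 (limma). Centring subtracts the mean of the line as it is, whereas the slopes on the other regions were 1.60 points per point for Dnmt3l and 1.93 for Tet3. It therefore takes out only part of the level. The call ended when the mean log odds of the other regions was a covariate, with adjusted p of 0.425 for Dnmt3l and 0.636 for Tet3, 0 pairwise contrasts for each, and 0 of 3 and 0 of 19 CpGs. Without columns with a final N, Tet3 kept 2 of its 3 contrasts, and B1 against B3B was lost. Among lines with 1 title both genes kept 2, and B2 against B3A was lost. The partial correlation of Dnmt3l with Tet3 turned to 0.0652 on log odds and reached -0.232 (p = 0.0317) from CpG means. The correlation of Tet3 minus Dnmt3l with the other regions fell short of the threshold on log odds (0.0742, p = 0.501) and in columns without a final N (0.241, p = 0.0796). The cause of these changes was not tested. The alternatives for these correlations, for CpGs and for lines with 1 title in the contrasts were chosen after seeing the data. Correlations of each gene with the other regions stayed between 0.889 and 0.955. Depth is unknown, so the counting error of single CpGs was not estimated. No paired analysis was possible because the prefixes share no line and their replicate numbers only name samples.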
